A study of Mus musculus with 50 samples.

Results

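Type I interferon-stimulated genes were followed as a group of 39 genes through 50 mouse RNA-seq libraries of regulatory T cells (Treg cells) and of the thymic cells from which they arise. The members are a list of genes known to be induced by interferon signalling. The list was chosen with earlier results of these data known, so counts of members below describe it and are not independent support. All 39 genes were found by symbol among the 55011 gene symbols of the count table. They were sorted here by function into 9 roles, from signal transducers to antiviral effectors. The thymic cells were CD4 single-positive thymocytes of B6.Cg-Foxp3tm1Kuch/J males taken on day 5, day 12 or day 49 of life, sorted as progenitor 1 (P1, CD25+Foxp3-) or progenitor 2 (P2, CD25-Foxp3+), with 3 libraries in each of the 6 groups. The tissue Treg cells came from spleen and 4 non-lymphoid sites, namely lung, liver, the skin of the ear (ear skin) and visceral adipose tissue (VAT). These mice were 20-week-old males carrying the allele Foxp3tm3(HBEGF/GFP)Ayr on a B6.129(Cg) background. In that allele the Foxp3 locus carries the diphtheria toxin receptor fused to GFP, so that toxin removes Foxp3+ cells. Each tissue had a control arm titled PBS and an arm titled DT, for diphtheria toxin, with 4 libraries per arm in VAT and 3 elsewhere. The design text speaks instead of receptor-positive and receptor-negative littermates that all received toxin on 3 consecutive days at 12 weeks and then rested 8 to 9 weeks. The labels give every peripheral library the same strain, so both arms carry the word labelled below, as PBS-labelled and DT-labelled. Treg cells of the DT-labelled arm are by this design cells that had returned after depletion. Libraries were made from 500 to 1000 sorted cells each. Since no label ties them to separate animals, a p-value here reflects only the spread from library to library, which may be technical.

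Type I interferons bind a receptor built of IFNAR1 and IFNAR2, whose kinases JAK1 and TYK2 phosphorylate STAT proteins. With IRF9 these form ISGF3, a complex that binds the interferon-stimulated response element in the promoters of target genes. Many of the products act against viruses, some sense viral nucleic acid and amplify the response, and others, such as USP18, end it. In the thymus interferons are made in the steady state, mainly by medullary epithelial cells, and thymocytes near the end of their maturation carry an interferon signature.

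Levels are given as CPM, the count of a gene scaled to the library's total after scaling by the trimmed mean of M-values, and differences as fitted log2 fold changes with their standard error (SE). A gene was called when its adjusted p (edgeR's quasi-likelihood test, Benjamini-Hochberg over all genes tested) was under 0.05. Total counts ranged from 2521078 to 6981037 per library. Foxp3, the transcription factor that defines Treg cells, averaged 8.0 to 13.9 CPM in the P1 groups, 282 to 769 CPM in the P2 groups and 254 to 405 CPM in the tissue groups. Il2ra, which encodes CD25, averaged 118 to 132 CPM in P1 and 14.9 to 35.4 CPM in P2. Cd4 did not follow the shared CD4 single-positive gate evenly: it averaged 324 CPM in day 12 P1 against 694 and 947 CPM in day 5 and day 49 P1, and ran from 217 to 849 CPM in day 49 P2. Among thymus libraries, those of day 12 P1 and of day 49 P2 (replicates 2 and 3) detected more genes than the rest (27911 to 31478 and 27729 to 28765 genes, against 20369 to 21283 at day 5) and gave a larger share of counts to genes of low expression. In the periphery the ear skin libraries (29191 to 33651 genes) and PBS-labelled lung replicate 2 (32497 genes) did so. Their results are therefore given with values of other cell types beside them. For day 49 P2, counts of members and a few single genes are also given without the 2 replicates. The other day 49 P2 values rest on all libraries of the group and were not given without these 2. In such bulk libraries, fewer cells with a high level and less RNA per cell cannot be told apart.

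The interferon-stimulated genes were highest in thymic P2 cells and lowest in ear skin. As a description, each library was given a score, the mean log2 CPM over the 39 members. In P2 the score was 6.99 ± 0.02 (SD, n = 3) at day 5, 7.13 ± 0.14 (n = 3) at day 12 and 6.94 ± 0.25 (n = 3) at day 49. In P1 it was 5.84 ± 0.03, 6.0 ± 0.14 and 6.33 ± 0.39 (n = 3 each). P2 and P1 did not overlap at day 5 or day 12, while at day 49 the P2 libraries (7.01, 7.15 and 6.67) overlapped with the P1 libraries (5.95, 6.74 and 6.30). Spleen followed at 5.68 ± 0.14 in the PBS-labelled and 5.71 ± 0.23 in the DT-labelled arm (n = 3 each), and liver at 5.5 ± 0.39 and 5.62 ± 0.23 (n = 3 each), its PBS-labelled libraries lying at 5.12, 5.48 and 5.90, on either side of the spleen range of 5.53 to 5.80. Lung scored 4.98 ± 0.30 and 5.27 ± 0.14 (n = 3 each), VAT 4.17 ± 0.23 and 4.94 ± 0.17 (n = 4 each) and ear skin 3.42 ± 0.27 and 4.10 ± 0.15 (n = 3 each). With the groups ordered by their mean score, the libraries of every pair of neighbours overlapped except DT-labelled and PBS-labelled VAT, and DT-labelled and PBS-labelled ear skin.

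**Figure D1:**
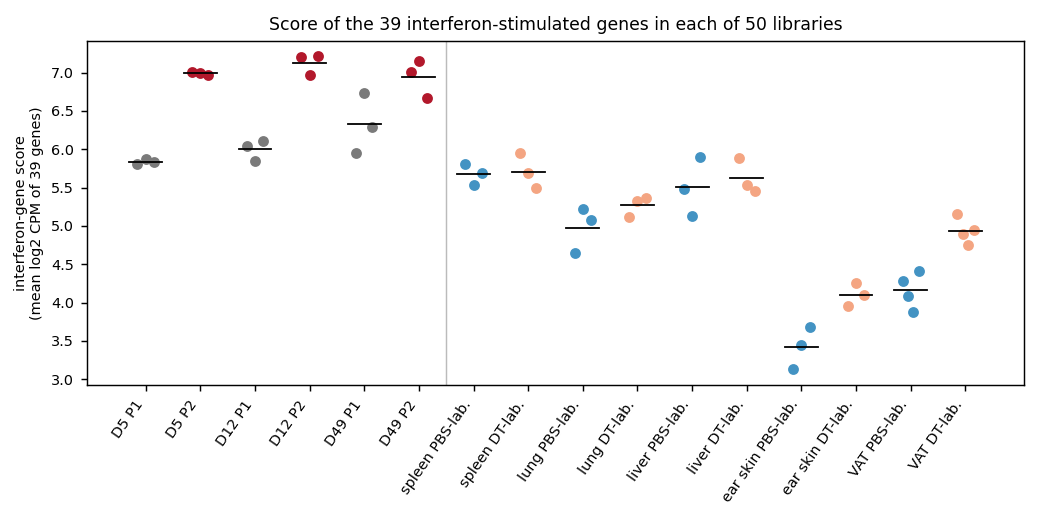
Score of each library (mean log2 CPM over the 39 members, vertical axis) in the 16 groups (horizontal axis); points are libraries and the line is the group mean. The 3 P2 groups sit near 7, spleen near 5.7 and PBS-labelled ear skin lowest at 3.42.

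Single genes followed this order with few exceptions. The highest of the 16 group means was in day 5 P2 for 16 members, in day 12 P2 for 14 and in day 49 P2 for 5. The remaining 4 peaked elsewhere, Ifit1bl1 in PBS-labelled spleen, Eif2ak2 in DT-labelled spleen, Ifi27l2a in DT-labelled lung and Oas1a in PBS-labelled liver. The lowest mean was in PBS-labelled ear skin for 29 members, in DT-labelled ear skin for 3 and in PBS-labelled VAT for 3. Per kilobase of exon, Ifi27l2a, a small mitochondrial protein gene, stood far above the other members with 1973 CPM per kb averaged over the groups. Bst2 (103 CPM per kb), Ifi35 (70) and Isg15 (67.4) came next, and Ifi44 (1.1) and Herc6 (3.0) were lowest.

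**Figure D2:**
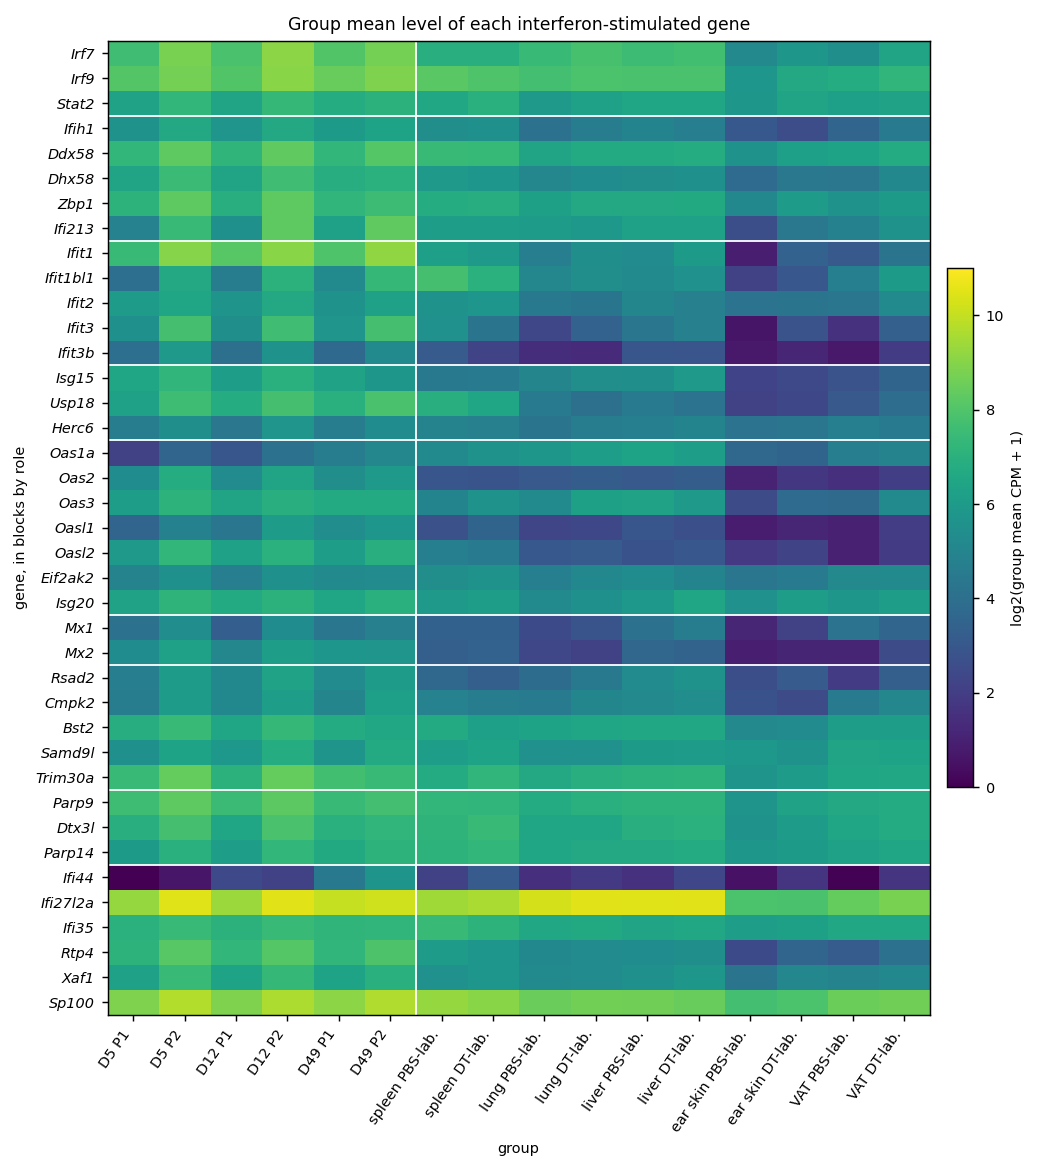
Group mean level of each member (rows, in blocks by role) in each group (columns), as log2 of mean CPM plus 1, shown by colour. The P2 columns are the brightest of the thymus columns for most genes, the ear skin and VAT columns the darkest, and Ifi27l2a is bright throughout.

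Many of the members' promoters hold a short repeat. RefSeq promoter windows on GRCm38.p6 (250 bases before to 50 after a start) were at hand for 29 of the 39 members. The core of the interferon-stimulated response element, GAAA followed by any 2 bases and a further GAAA, occurred on either strand in 15 of these 29 genes (51.7%), against 1079 of 27025 genes (3.99%) over all windows. TTCNNNGAA, the palindrome bound by STAT dimers, occurred in 6 of 29 members (20.7%), against 9.55% of all genes. A match is a description of the letters and not evidence of binding. The stretches below are from members named in the comparisons that follow, and were picked because they hold the repeat before the start. Irf7 and Oasl2, which recur in those comparisons, had windows without the repeat, and Usp18 had no window. Eif2ak2, not called between P2 and P1 at any age, holds it. Each stretch is read 5′ to 3′ on the strand of its gene. Capitals mark the repeat, which reads TTTC, any 2 bases and TTTC where it lies on the other strand.
Isg15 (chr4:156200855-156200916, minus strand): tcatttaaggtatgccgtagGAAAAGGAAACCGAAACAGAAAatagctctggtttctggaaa
Ifit1 (chr19:34640765-34640833, plus strand): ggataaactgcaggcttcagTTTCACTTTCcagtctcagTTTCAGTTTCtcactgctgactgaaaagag
Ifit3 (chr19:34583353-34583436, plus strand): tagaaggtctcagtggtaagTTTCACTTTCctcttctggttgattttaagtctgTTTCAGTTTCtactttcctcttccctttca
Ifit1bl1 (chr19:34602043-34602092, minus strand): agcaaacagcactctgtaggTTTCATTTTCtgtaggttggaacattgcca
Ifi213 (chr1:173599316-173599365, minus strand): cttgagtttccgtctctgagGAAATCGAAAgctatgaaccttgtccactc
Oas1a (chr5:120907526-120907565, minus strand): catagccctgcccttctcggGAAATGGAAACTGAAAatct
Oas3 (chr5:120777705-120777754, minus strand): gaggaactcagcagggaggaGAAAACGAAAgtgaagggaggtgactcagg
Bst2 (chr8:71537567-71537622, minus strand): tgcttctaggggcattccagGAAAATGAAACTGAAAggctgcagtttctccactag
Isg15 holds 3 overlapping copies, 78, 72 and 66 bases before the start, and Oas1a and Bst2 each hold 2 overlapping copies. Ifit1 holds 2 separate copies, and the Ifit3 stretch is identical, letter for letter, to the one at Ifit3b (chr19:34607749-34607832). Reads of Ifit3 and Ifit3b, of Ifit1bl1 and the other Ifit genes, and of Oas1a, Trim30a and Ifi213 and their relatives may have been divided between near-identical copies, so the levels of these genes are less certain.

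In the thymus, P2 cells were compared with P1 cells of the same age, which asks how the 2 progenitors differ. At day 5, 36 of the 39 members were higher in P2 and none was lower, where 6.79% of the 14696 genes tested were higher and 8.4% lower. At day 12, 34 members were higher and none lower (17.6% and 23.8% of all genes, together 41.4%), and at day 49, 25 were higher and none lower (16.6% and 12.9%). The median log2 difference of the members was 1.09, 0.91 and 0.68 at the 3 ages, against -0.00, -0.08 and 0.10 over all genes tested. In 38 members at day 5, 38 at day 12 and 17 at day 49 every P2 library lay above every P1 library, against 16.2%, 28.9% and 10.7% of all genes. Altogether 22 members were higher in P2 at all 3 ages, and only Eif2ak2, which encodes the RNA-activated kinase PKR, was called at none.

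**Figure D3:**
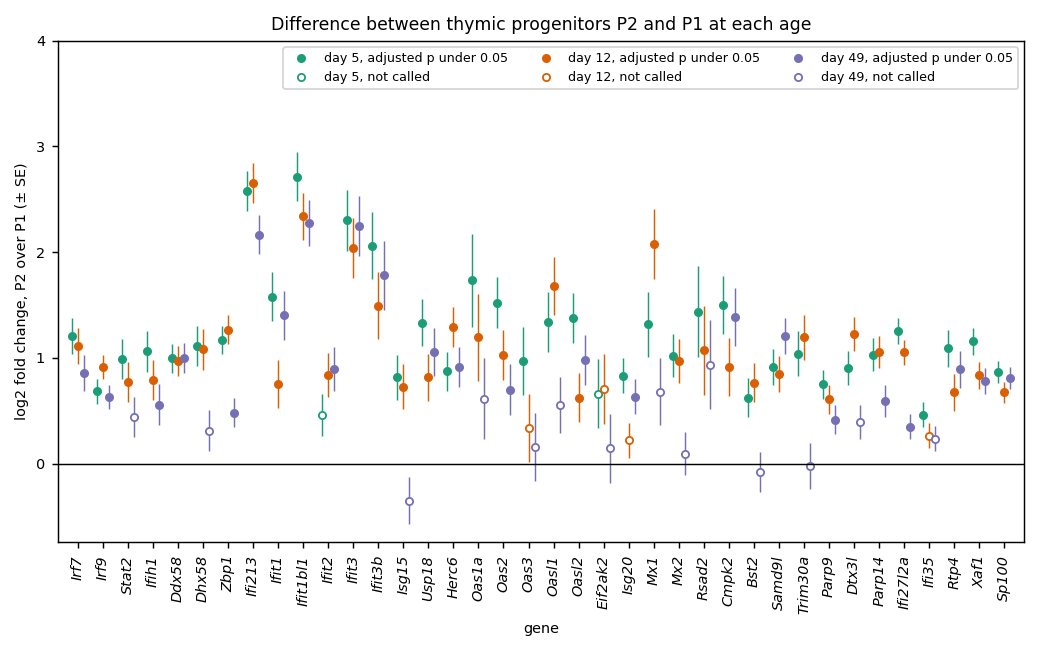
Log2 fold change of P2 over P1 (vertical axis, bars are SE) for each member (horizontal axis), with the 3 ages in different colours; filled points passed the test, open points did not, and Ifi44 is left out because it is at 0 in day 5 P1. All points of day 5 and day 12 lie above 0, and at day 49 those of Bst2, Isg15 and Trim30a lie below it.

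The IFIT genes, whose products bind viral RNA that lacks the host's cap marks, showed some of the widest gaps. Of the 5, 4 were higher in P2 at day 5 and 5 at day 12 and at day 49. Ifit3 was at 37.5, 43.6 and 53.2 CPM in day 5 P1 and at 213, 221 and 213 CPM in day 5 P2. At day 49 it was at 30.2, 74.0 and 52.4 CPM in P1 and at 137, 236 and 272 CPM in P2. The groups were apart at each age, with log2 differences of 2.3 ± 0.29 (SE, adjusted p = 8.97e-06), 2.04 ± 0.29 (adjusted p = 1.4e-05) and 2.25 ± 0.29 (adjusted p = 9.14e-06). Ifit1bl1 rose from 13.5, 13.8 and 18.1 CPM in day 5 P1 to 109, 95.2 and 87.2 CPM in day 5 P2. Its log2 difference was 2.71 ± 0.23 at day 5, 2.34 ± 0.22 at day 12 and 2.27 ± 0.22 at day 49 (adjusted p of 8.17e-08, 1.57e-07 and 2.87e-07). Ifit1, at 147, 192 and 181 CPM in day 5 P1 and at 533, 541 and 445 CPM in day 5 P2, differed by 1.58 ± 0.23 at day 5, 0.75 ± 0.23 at day 12 and 1.40 ± 0.23 at day 49.

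All 5 sensors of foreign nucleic acid were higher in P2 at day 5 and at day 12, and 4 of them at day 49. Ifi213, of the p200 family of DNA-binding proteins, was at 23.8, 21.0 and 40.5 CPM in day 5 P1 and at 178, 165 and 158 CPM in day 5 P2. It reached 381, 321 and 241 CPM in day 49 P2, where P1 stood at 68.1, 86.3 and 80.9 CPM. The log2 difference was 2.58 ± 0.19, 2.65 ± 0.19 and 2.16 ± 0.18 at the 3 ages (adjusted p of 1.47e-08, 3.53e-09 and 5.41e-08). Zbp1, a sensor of Z-form nucleic acid that can start cell death, was tightly grouped at day 5, with 132, 142 and 142 CPM in P1 and 306, 304 and 303 CPM in P2. By day 49 its P2 libraries were at 251, 170.3 and 138 CPM and overlapped with P1 (141, 172 and 133 CPM), although the log2 difference of 0.48 ± 0.14 was still called (adjusted p = 0.0131). Ifih1, which encodes the RNA sensor MDA5, differed by 1.06 ± 0.19, 0.79 ± 0.19 and 0.56 ± 0.19.

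Among the signal transducers, Irf7, the factor that amplifies interferon production, was at 202, 210.5 and 184 CPM in day 5 P1 and at 449.8, 451 and 439.6 CPM in day 5 P2. The 2 groups did not overlap at any age, and the log2 difference was 1.2 ± 0.17 at day 5 (adjusted p = 4.08e-05), 1.11 ± 0.17 at day 12 (adjusted p = 3.79e-05) and 0.86 ± 0.17 at day 49 (adjusted p = 0.000974). Irf9, the DNA-binding part of ISGF3, was likewise higher in P2 at each age. Stat2, a further part of that complex, differed by 0.99 ± 0.19 and 0.77 ± 0.19 at day 5 and day 12, and at day 49 the difference of 0.44 ± 0.19 missed the threshold (adjusted p = 0.0848).

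Members of the ubiquitin-like ISG15 pathway parted at day 49. Isg15, the modifier itself, was at 87.7, 89.0 and 88.0 CPM in day 5 P1 and at 149.9, 159.6 and 145 CPM in day 5 P2, a log2 difference of 0.81 ± 0.21 (adjusted p = 0.0106). At day 49 it was at 53.6, 114 and 71.9 CPM in P1 and at 68.2, 64.6 and 36.2 CPM in P2. The groups overlapped and the difference was -0.35 ± 0.22 (adjusted p = 0.244). Usp18, the protease that removes ISG15 from proteins and blocks the receptor, was at 78.2, 87.3 and 66.5 CPM in day 5 P1 and at 200.0, 184 and 187 CPM in day 5 P2. In day 49 P2 it stood at 182, 301 and 204 CPM, above all 3 P1 libraries (93.0, 178 and 106 CPM). Its log2 difference was 1.33 ± 0.23, 0.82 ± 0.22 and 1.05 ± 0.22 at the 3 ages (adjusted p of 0.000264, 0.00657 and 0.00169). Herc6, which attaches ISG15 in the mouse, was higher in P2 at each age (0.87 ± 0.18, 1.29 ± 0.19 and 0.91 ± 0.19).

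Of the 7 genes grouped as the oligoadenylate synthetase (OAS) family with PKR and Isg20, 6 were higher in P2 at day 5, 4 at day 12 and 3 at day 49, Isg20 being one of them at day 5 and day 49. Oasl2, an OAS-like protein with ubiquitin-like domains, was at 53.0, 71.9 and 58.2 CPM in day 5 P1 and at 146, 160.3 and 158 CPM in day 5 P2. It differed by 1.38 ± 0.24, 0.62 ± 0.23 and 0.98 ± 0.24 (adjusted p of 0.000311, 0.0383 and 0.00476). The day 12 call was lost with DESeq2's size factors (adjusted p = 0.0593), with DESeq2 itself (0.0556) and without day 12 P1 replicate 1 or 2 or P2 replicate 2 or 3 (0.0622 to 0.14). The day 49 call was lost with the share of low-expression counts as a covariate (adjusted p = 0.221), in the compared libraries alone (0.0643) and without P2 replicates 2 and 3 together (0.417). Its day 49 libraries overlapped, with 97.7 CPM in the highest P1 and 88.8 CPM in the lowest P2 library. Oas3, which makes the messenger that activates RNase L, differed by 0.97 ± 0.32 at day 5 (adjusted p = 0.047), and by 0.34 ± 0.32 and 0.16 ± 0.32 at day 12 and day 49, where it was not called. The 2 Mx GTPases, which trap viral nucleocapsids, were higher in P2 at day 5 and day 12 and neither passed the test at day 49.

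The other antiviral effectors were all higher in P2 at day 5 and day 12 (5 of 5), and 2 of 5 at day 49. Bst2, or tetherin, which holds budding virus at the cell surface, was at 105, 114 and 126 CPM in day 5 P1 and at 174, 189.8 and 156 CPM in day 5 P2, a log2 difference of 0.62 ± 0.18 (adjusted p = 0.0241) that was no longer called without P1 replicate 1 or 2 or P2 replicate 1 or 2 (adjusted p of 0.0638 to 0.101). At day 49 the P2 libraries (122, 102 and 56.8 CPM) overlapped with P1 (101, 134 and 93.4 CPM) and the difference was -0.08 ± 0.19 (adjusted p = 0.792). Rsad2, which encodes viperin, was at 15, 37.9 and 23.1 CPM in day 5 P1 and at 57.2, 79.6 and 64.5 CPM in day 5 P2 (1.44 ± 0.43, adjusted p = 0.0259), and its call was lost without P1 replicate 1 or 3 or P2 replicate 2 or 3 (adjusted p of 0.0559 to 0.121). Samd9l, a translation-blocking restriction factor, kept its gap, with 0.92 ± 0.17, 0.85 ± 0.17 and 1.2 ± 0.17. Ifi27l2a, the most abundant member, was at 589, 554 and 666 CPM in day 5 P1 and at 1418, 1502 and 1292 CPM in day 5 P2, a log2 difference of 1.25 ± 0.12 (adjusted p = 4.33e-07).

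Whether the gap between P2 and P1 itself changed with age was tested as a difference of differences. Between day 12 and day 5 no member passed the test (3.67% of all genes did in either direction, 1.9% with a wider and 1.78% with a narrower gap), with 4 members at an unadjusted p under 0.05 and 1 called by DESeq2. Between day 49 and day 5, Ifi27l2a alone passed, where 0.374% of all genes did, and 10 members had an unadjusted p under 0.05. Its P2 libraries were at 1260.4, 1308 and 980.4 CPM at day 49 while P1 had reached 910.3, 1264 and 960.4 CPM, so the gap had narrowed by 0.90 on the log2 scale (-0.90 ± 0.17, adjusted p = 0.03). This call was lost with the share of low-expression counts as a covariate and in 6 of 12 fits that left out a single library. Of the 39 members, 35 had a smaller gap at day 49, with a median change of -0.44, and Isg15 (-1.16 ± 0.31, adjusted p = 0.108) and Trim30a (-1.06 ± 0.30, adjusted p = 0.131) had the largest estimates beside Oas1a and Ifi44. The 2 day 49 P2 libraries with many detected genes bear on these values: without both, 18 rather than 25 members were called higher in P2 at day 49.

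Between ages within a progenitor, some members rose, and in P2 others fell. From day 5 to day 49, 8 members rose in P1 and none fell, where 4.06% of all genes rose and 6.5% fell. Oas1a was at 3.13, 2.94 and 3.90 CPM in day 5 P1 and at 13.5, 38.5 and 20.3 CPM in day 49 P1 (2.84 ± 0.44, adjusted p = 0.000118), and Ifi213 (1.45 ± 0.19), Ifit1bl1 (1.3 ± 0.23) and Ifi27l2a (0.79 ± 0.12) rose as well. Ifi44, an antiviral gene of unsettled mechanism, had no count in any day 5 P1 library and stood at 11, 28.7 and 21.9 CPM in day 49 P1, at least 114-fold higher against a floor of 3 counts over the group of day 5 libraries. In P2, 7 members rose and 6 fell from day 5 to day 49, near the shares of all genes (14.7% and 11.1%). Oas1a, Ifi213, Ifit1bl1 and Ifi44 rose in P2 too, while Isg15 fell from 149.9, 159.6 and 145 CPM to 68.2, 64.6 and 36.2 CPM (-1.32 ± 0.22, adjusted p = 0.000211). Bst2 (-0.78 ± 0.19, adjusted p = 0.00534), Trim30a, a restriction factor (-0.83 ± 0.21), and Zbp1 (-0.59 ± 0.14) fell with it. With the low-expression share as covariate these 3 were not called (adjusted p of 0.219, 0.255 and 0.194). Without day 49 P2 replicates 2 and 3 the number of members changed in P2 was 8 instead of 13, and it was 6 when the compared libraries were fitted alone. Between day 5 and day 12, 6 members rose in P1 and 2 in P2, and none fell. Of all genes, 10.1% rose and 8.16% fell in P1, and 1.81% rose and 3.35% fell in P2 (together 5.16%). Between day 12 and day 49, 8 members rose and none fell in P1 (10.2% and 13.5% of all genes). In P2, 2 rose and 4 fell over that span, near the shares of all genes (9.02% and 5.97%). These counts rest on single libraries. For P1 from day 5 to day 12 the count was 1, 2 and 4 without day 5 replicates 1, 2 and 3, and 3, 4 and 2 without day 12 replicates 1, 2 and 3. For P1 from day 12 to day 49 it was 5, 3 and 5 without day 12 replicates 1, 2 and 3, and 3 and 5 without day 49 replicates 2 and 3. For P2 over the same span it was 3 and 3 without day 12 replicates 1 and 3, 10 without day 49 replicate 1, and 4 without day 12 replicate 2 or day 49 replicate 3.

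The receptor and kinase genes upstream moved with the members in part. Of 10 genes tested from the list of interferon receptors and JAK-STAT genes, 5 were higher in P2 at day 5, 8 at day 12 and 5 at day 49, and none was lower. Shares of all genes higher and lower were 6.79% and 8.4% at day 5, 17.6% and 23.8% at day 12, and 16.6% and 12.9% at day 49. Ifnar1 differed by 0.46 ± 0.11, 0.73 ± 0.11 and 0.34 ± 0.11 and was called at each age. The day 49 call was lost without the filter on low counts (0.12, adjusted p = 0.648), with the low-expression share as covariate (0.42, adjusted p = 0.0538), in the compared libraries alone (adjusted p = 0.157) and without P1 replicate 1 or 2 or P2 replicate 2 (adjusted p of 0.0632 to 0.154). Ifnar2 was not called at any (0.39 ± 0.15, 0.36 ± 0.15 and 0.07 ± 0.15). Irf1, a factor induced chiefly by interferon gamma, was higher in P2 at day 5 (0.73 ± 0.20, not called without P1 replicate 1 or P2 replicate 1, adjusted p of 0.0566 and 0.0837) and day 12 (1.83 ± 0.21) and not called at day 49 (0.45 ± 0.20, adjusted p = 0.0978). Irf4, which antigen receptor signalling induces, went the other way, with -1.27 ± 0.25, -1.18 ± 0.25 and -1.68 ± 0.26.

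Among 18 sensing and adaptor genes tested, 6 were higher and none lower in P2 at day 5, 10 higher and 2 lower at day 12, and 2 higher and 2 lower at day 49. At day 49 both counts were near or below the shares of all genes (16.6% higher and 12.9% lower). Sting1, the adaptor of cytosolic DNA sensing, was higher at each age (0.96 ± 0.12, 0.80 ± 0.12 and 0.85 ± 0.12). Of 14 negative regulators, 2 were higher and 1 lower at day 5, 3 higher and 1 lower at day 12, and 4 higher and 5 lower at day 49. Over all genes, 6.79% were higher and 8.4% lower at day 5, 17.6% and 23.8% at day 12, and 16.6% and 12.9% at day 49. Samhd1, an enzyme that degrades nucleotides, was higher at each age (1.68 ± 0.11, 1.83 ± 0.11 and 1.73 ± 0.11), and Socs1, an inhibitor of JAK kinases, was lower at day 49 (-0.72 ± 0.22, adjusted p = 0.02). That call was lost with the low-expression share as covariate (-0.50, adjusted p = 0.299), in the compared libraries alone (adjusted p = 0.0553), without P2 replicates 2 and 3 together (adjusted p = 0.243) and without P1 replicate 1 or P2 replicate 3 (adjusted p of 0.0657 and 0.067). Uba7, the enzyme that activates ISG15 for conjugation, was higher at each age (0.95 ± 0.11, 0.98 ± 0.11 and 0.48 ± 0.11). No interferon gene of the list had enough counts to be tested in the thymus.

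Genes of other cell types gave the following values beside these differences. The summed level of 12 macrophage and monocyte markers was 18.9 to 29.8 CPM in day 5 P2 against 6.72 to 15.9 CPM in day 5 P1, with 4 markers at 0 in each group. It was 8.73 to 22.0 against 8.94 to 15.7 CPM at day 12, and 31.1 to 170 against 16.1 to 59.0 CPM at day 49. Other sums did not overlap at day 12. The conventional dendritic cell markers were at 12.6 to 38.5 CPM in P1 and 4.93 to 10.4 CPM in P2. Hepatocyte markers were at 23.7 to 27.2 and 11.7 to 17.7 CPM, and plasmacytoid dendritic cell markers at 194 to 234 and 162 to 178 CPM. Fibroblast and mesothelial markers were at 6.82 to 13.2 and 0.213 to 4.31 CPM, and keratinocyte markers at 6.18 to 7.48 and 2.98 to 4.54 CPM. Neutrophil markers were at 1.88 to 3.47 and 0 to 0.681 CPM, and adipocyte markers at 1.09 to 1.41 and 0 to 0.896 CPM. The endothelial sum there was 176 to 226 CPM in P1 and 373 to 395 CPM in P2. The 8 plasmacytoid dendritic cell markers, from the cells that make the most interferon, summed to 146 to 161 CPM in day 5 P2 and 186 to 188 CPM in day 5 P1, mostly from Pacsin1, and Siglech, which defines these cells, averaged at most 2.0 CPM in any thymus group. The 6 endothelial markers summed to 354 to 380 CPM in day 5 P2 and 188 to 220 CPM in day 5 P1, mostly from Pecam1, while Cdh5 averaged at most 2.3 CPM. The 8 T cell markers were at 8497 to 8610 CPM in day 5 P2 and 7361 to 7601 CPM in day 5 P1. The 2 CD8 T cell markers were lower in P2 without overlap at each age. Their sum was 48.7 to 57.3 CPM in P1 and 35.0 to 46.0 CPM in P2 at day 5. It was 64.8 to 71.9 against 23.8 to 30.2 CPM at day 12, and 74.7 to 81.1 against 27.1 to 42.3 CPM at day 49. Cd8a averaged 13.8 to 17.7 CPM in the P1 groups and 0.968 to 3.63 CPM in the P2 groups. The part of other cells in the differences was not tested.

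**Figure D4:**
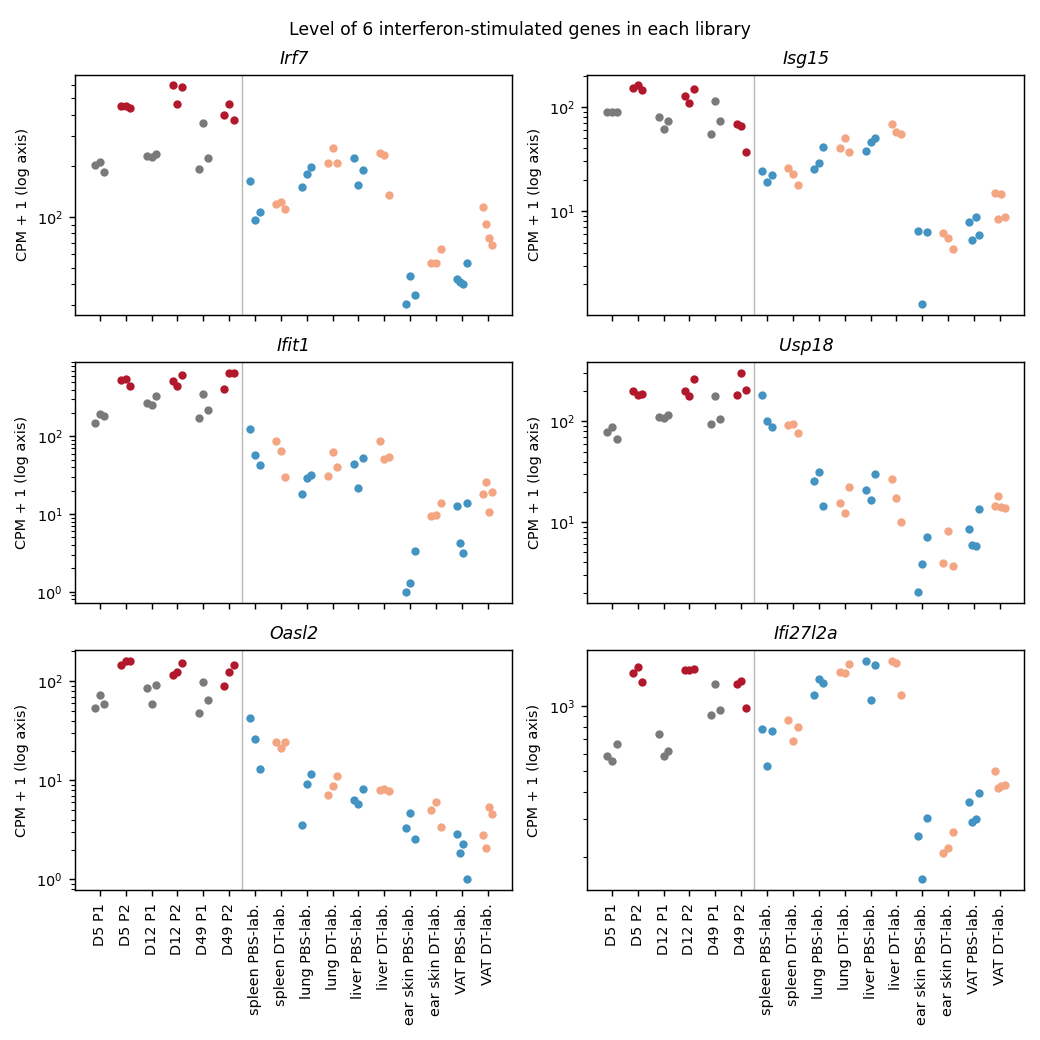
CPM plus 1 on a log axis (vertical) of Irf7, Isg15, Ifit1, Usp18, Oasl2 and Ifi27l2a in each library (points) of the 16 groups (horizontal axis). P2 stands above P1 at day 5 and day 12 in all 6 panels, the means of Oasl2 and Usp18 lie lower in each of the other tissues than in spleen of the same arm, and Ifi27l2a is higher in lung and liver than in spleen.

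Treg cells of the 4 non-lymphoid tissues were compared with splenic Treg cells of the same arm, which asks how Treg cells differ between tissues. The comparisons of an arm share its 3 spleen libraries, so their results are not independent of each other. In ear skin, 34 of the 39 members were lower than in spleen in the PBS-labelled arm and none was higher, where 12.5% of the 17731 genes tested were lower and 11.1% higher, and in the DT-labelled arm 27 were lower and none higher (11.6% and 10.5%). In VAT, 28 members were lower and none higher in the PBS-labelled arm (6.27% and 8.67% of all genes), and 11 were lower and none higher in the DT-labelled arm (3.15% and 5.7%). The median log2 difference of the members was -1.70 and -1.27 in ear skin and -1.21 and -0.62 in VAT, PBS-labelled before DT-labelled. All 27 members lower in ear skin of the DT-labelled arm were lower in the PBS-labelled arm too, and 26 of the members lower in PBS-labelled VAT were also lower in PBS-labelled ear skin. Herc6, Isg20, an RNA exonuclease, and Samd9l were lower in neither tissue in either arm.

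**Figure D5:**
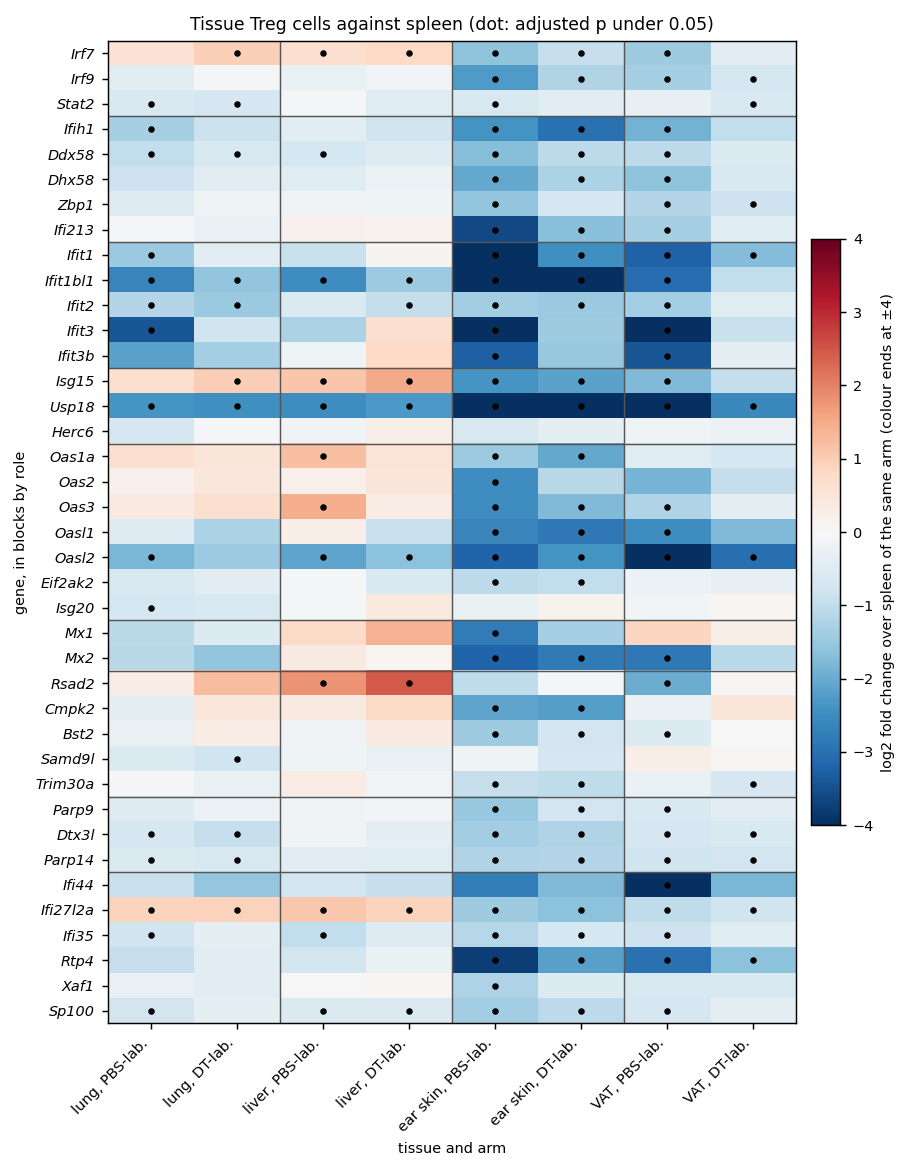
Log2 fold change of each tissue over spleen of the same arm (columns) for each member (rows, in blocks by role), as colour that ends at 4 in either direction; a dot marks a member that passed the test. The ear skin columns and the PBS-labelled VAT column are blue with dots for most genes, while in lung and liver Ifi27l2a is red and Usp18 and Ifit1bl1 are blue.

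Usp18 was low in all 4 tissues. It was at 181, 99.8 and 87.7 CPM in PBS-labelled spleen and at 90.4, 94.0 and 75.6 CPM in DT-labelled spleen. In ear skin it was at 1.03, 2.83 and 6.09 CPM in the PBS-labelled and at 2.92, 7.08 and 2.68 CPM in the DT-labelled arm, and in VAT at 7.48, 4.97, 4.86 and 12.6 CPM and at 13.4, 17.3, 13.2 and 12.8 CPM. No library of either tissue came near the spleen range. The log2 differences were -5.06 ± 0.48 and -4.16 ± 0.47 in ear skin (adjusted p of 9.18e-10 and 3.4e-08), -3.98 ± 0.39 and -2.58 ± 0.37 in VAT (2.4e-09 and 5.71e-06), -2.37 ± 0.40 and -2.44 ± 0.41 in lung (5.23e-05 and 4.54e-05) and -2.47 ± 0.40 and -2.29 ± 0.40 in liver (3.07e-05 and 0.000105).

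Some IFIT genes were near 0 in PBS-labelled ear skin, while Ifit2 kept 9.31, 15.5 and 26.5 CPM there. Ifit1 was at 124, 56.0 and 42.1 CPM in PBS-labelled spleen, at 0, 0.283 and 2.38 CPM in PBS-labelled ear skin and at 11.6, 3.24, 2.11 and 12.8 CPM in PBS-labelled VAT. Ifit3 was at 99.0, 21.7 and 20.3 CPM in the same spleen libraries, at 0, 0.283 and 1.32 CPM in ear skin and at 2.06, 0.216, 0 and 5.58 CPM in VAT. With counts so near 0 the fitted log2 differences of -6.18 ± 0.71 for Ifit1 and -6.22 ± 0.95 for Ifit3 in ear skin are imprecise; in VAT they were -3.24 ± 0.48 and -4.48 ± 0.70. Ifit1bl1 was at 323, 199.7 and 129.6 CPM in PBS-labelled spleen, the highest mean of the 16 groups, and at 1.29, 7.06 and 1.59 CPM in PBS-labelled ear skin (-5.89 ± 0.55, adjusted p = 6.5e-10). All 5 IFIT genes were lower in ear skin and in VAT in the PBS-labelled arm, and 3 and 1 of them in the DT-labelled arm.

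The signal transducers Irf7, Irf9 and Stat2 were all lower in PBS-labelled ear skin, with log2 differences of -2.28 to -0.63. Irf7 was at 161, 94.5 and 106 CPM in PBS-labelled spleen, at 29.5, 43.5 and 33.6 CPM in ear skin (-1.62 ± 0.22, adjusted p = 1.14e-06) and at 41.9, 40.0, 39.1 and 52.3 CPM in VAT (-1.44 ± 0.20, adjusted p = 2.13e-06). In the DT-labelled arm the difference was -0.94 ± 0.22 in ear skin (adjusted p = 0.00197) and -0.41 ± 0.20 in VAT, which was not called (adjusted p = 0.248). Irf9 was lower in VAT in both arms, a call that in the DT-labelled arm was lost without spleen replicate 4 or 5 or VAT replicate 6 or 7 (adjusted p of 0.056 to 0.104). Among the sensors, all 5 were lower in both tissues in the PBS-labelled arm, with Ifi213 at 61.9, 69.9 and 80.9 CPM in spleen and at 1.81, 8.48 and 5.56 CPM in ear skin (-3.62 ± 0.36, adjusted p = 2.33e-09). In the DT-labelled arm 4 of the 5 were lower in ear skin and 1, Zbp1, in VAT.

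Isg15 was at 23.1, 18.2 and 21.0 CPM in PBS-labelled spleen and at 5.43, 0.283 and 5.30 CPM in ear skin (-2.36 ± 0.40, adjusted p = 3.46e-05). In PBS-labelled VAT it was at 6.92, 4.33, 7.82 and 4.96 CPM (-1.75 ± 0.34, adjusted p = 0.000295). It was lower in DT-labelled ear skin too and was not called in DT-labelled VAT. Oasl2 was at 41.9, 24.9 and 12.1 CPM in spleen, at 2.33, 3.67 and 1.59 CPM in ear skin (-3.21 ± 0.59) and at 1.87, 0.865, 1.27 and 0 CPM in VAT (-4.61 ± 0.57, adjusted p = 1.97e-07), so that in VAT it was almost absent from the counts. Of the abundant members, Bst2 (135, 83.2 and 96.3 CPM in spleen against 37.2, 37.3 and 30.7 CPM in ear skin) differed by -1.44 ± 0.21, and Ifi27l2a (782, 526 and 764 CPM against 250.3, 157 and 305 CPM) by -1.42 ± 0.19. Bst2 in VAT overlapped with spleen and was barely called (-0.55 ± 0.19, adjusted p = 0.0496); without spleen replicate 1 or 3 or VAT replicate 3 or 4 it was not (adjusted p of 0.0714 to 0.322). Rtp4, a chaperone gene induced by interferon, was at 72.8, 64.2 and 62.0 CPM in spleen, at 0.776, 4.24 and 8.47 CPM in ear skin and at 8.98, 2.81, 5.07 and 15.7 CPM in VAT (-3.75 ± 0.50 and -2.98 ± 0.41).

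The VAT count in the DT-labelled arm was the least settled of the 4. It was 6 when VAT replicates 5 and 7 of that arm were left out together, a choice made after the data were seen because these libraries had the highest marker sums of other cells. It was 5 without spleen replicate 4, 7 without spleen replicate 6, 5 without VAT replicate 7 and 21 when the compared libraries were fitted alone. In 24 members every VAT library of the DT-labelled arm lay below every spleen library, against 10.9% of all genes. The 9 members lower in VAT in both arms, by the fit over all libraries, were Irf9, Zbp1, Ifit1, Usp18, Oasl2, Dtx3l, Parp14, Ifi27l2a and Rtp4. In ear skin of the DT-labelled arm another scaling (DESeq2's size factors in edgeR) moved the median of all genes from 0.126 to 0.279 and that of the members from -1.27 to -1.11.

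In lung and liver some members were lower than in spleen and others higher. The numbers higher were near the shares of all genes in the DT-labelled arm and below the share in PBS-labelled lung. In lung 14 members were lower than in spleen and 1 higher in the PBS-labelled arm (7.79% and 8.14% of all genes), and 8 lower and 3 higher in the DT-labelled arm (6.15% and 8.48%). In liver 6 were lower and 6 higher in the PBS-labelled arm (7.85% and 9.15%), and 5 lower and 4 higher in the DT-labelled arm (5.08% and 8.18%). The total was 9 in PBS-labelled lung without lung replicate 1, and in DT-labelled lung it was 6 without spleen replicate 4, 7 without spleen replicate 6, 5 without lung replicate 4 and 7 without lung replicate 5. For liver it was 7 in the PBS-labelled arm without spleen replicate 1 or without liver replicate 3, and 5 in the DT-labelled arm without liver replicate 5 or 6.

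Ifi27l2a was higher in both tissues and both arms. It was at 1120.4, 1324 and 1269 CPM in PBS-labelled lung and at 1614, 1059.9 and 1538 CPM in PBS-labelled liver, above all spleen libraries, with log2 differences of 0.89 ± 0.19 and 1.07 ± 0.19 (adjusted p of 0.000772 and 9.24e-05). In the DT-labelled arm the differences were 0.94 ± 0.19 in lung and 0.90 ± 0.19 in liver. Isg15 was at 37.1, 44.9 and 49.3 CPM in PBS-labelled liver and at 67.0, 56.4 and 53.9 CPM in DT-labelled liver, above the spleen libraries of each arm (1.12 ± 0.35, adjusted p = 0.0223, and 1.5 ± 0.35, adjusted p = 0.00264). Rsad2 was at 42.6, 27.2 and 46.8 CPM in PBS-labelled liver and at 24.1, 4.50 and 6.15 CPM in spleen (1.80 ± 0.54, adjusted p = 0.0172), and differed by 2.47 ± 0.55 in the DT-labelled arm. Irf7, the fourth gene higher in liver in both arms, differed by 0.68 ± 0.21 and 0.81 ± 0.21. In the PBS-labelled arm these calls were not firm: each was lost in 4 of 6 fits that left out a single library. Isg15 was lost without spleen replicate 1 or 2 or liver replicate 2 or 3 (adjusted p of 0.0549 to 0.0894). Rsad2 was lost without spleen replicate 2 or 3 or liver replicate 1 or 3 (adjusted p of 0.063 to 0.104). Irf7 was lost without the same 4 libraries as Rsad2 (adjusted p of 0.0622 to 0.194).

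Other members fell in the same tissues. Ifit1bl1 was at 29.5, 25 and 44.6 CPM in PBS-labelled lung and at 44.2, 25.2 and 41.6 CPM in PBS-labelled liver, below all spleen libraries (-2.65 ± 0.44 and -2.50 ± 0.44, adjusted p of 3.93e-05 and 8.53e-05). Oasl2 was at 5.36, 4.77 and 7.21 CPM in PBS-labelled liver (-2.12 ± 0.54, adjusted p = 0.00532) and at 2.55, 8.13 and 10.6 CPM in PBS-labelled lung (-1.82 ± 0.53, adjusted p = 0.016). Sp100, a component of PML nuclear bodies, was also lower in liver in both arms, and Stat2, Ddx58 (RIG-I), Ifit2, Dtx3l and Parp14 were lower in lung in both arms. In the DT-labelled arm the call of Ddx58 was lost in each of 6 fits that left out a single library (adjusted p of 0.0907 to 0.224). That of Parp14 was lost without spleen replicate 4 or 6 or lung replicate 4 or 5, and that of Stat2 without spleen replicate 4 or lung replicate 4 or 6. Ifit3 fell in PBS-labelled lung (1.62, 4.52 and 6.06 CPM, -3.44 ± 0.74) and was not called in liver in either arm (-1.25 ± 0.66 and 0.64 ± 0.66). Bst2 was not called in lung or liver in either arm (-0.30 ± 0.21, 0.30 ± 0.21, -0.13 ± 0.21 and 0.37 ± 0.21).

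Upstream genes also differed by tissue. Ifnar1 was higher in lung (1255 ± 350 CPM, SD, n = 3, against 386 ± 46.1 CPM in PBS-labelled spleen; 1.75 ± 0.22, adjusted p = 5.09e-07) and in liver (1173 ± 278 CPM, n = 3; 1.65 ± 0.22, adjusted p = 1.25e-06), also in the DT-labelled arm (1.96 ± 0.22 and 1.64 ± 0.22). It was not called in ear skin (-0.13 ± 0.22 and -0.04 ± 0.22) or VAT (-0.27 ± 0.20 and -0.15 ± 0.20). Ifnar2 was lower in ear skin in both arms (-1.32 ± 0.23 and -1.86 ± 0.24) and was not called elsewhere.

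Of the 10 receptor and JAK-STAT genes tested, 2 were higher and 5 lower in PBS-labelled ear skin, 3 higher and 1 lower in VAT, 5 higher and 2 lower in lung and 4 higher and 1 lower in liver. Of all genes tested, 11.1% were higher and 12.5% lower in ear skin, and 8.67% and 6.27% in VAT. For lung the shares were 8.14% and 7.79%, and for liver 9.15% and 7.85%. Sting1 was lower in all 4 tissues in both arms, from -1.33 ± 0.17 in PBS-labelled ear skin to -0.67 ± 0.17 in DT-labelled liver. Irf4 was higher in all 4 tissues of the PBS-labelled arm, up to 3.46 ± 0.31 in ear skin, and Irf1 was lower in ear skin (-1.30 ± 0.24 and -0.82 ± 0.24) and in PBS-labelled VAT (-0.67 ± 0.22, not called without spleen replicate 2 or 3 or VAT replicate 2 or 3). Socs1 was lower in liver (-2.29 ± 0.43 and -2.0 ± 0.42) and not called in the other tissues. Samhd1 was lower in ear skin (-2.26 ± 0.23 and -1.37 ± 0.22). It was also called lower in PBS-labelled VAT and higher in DT-labelled lung. Of the interferons only Ifng, the type II ligand that also induces some of the members, could be tested, and it was higher than in spleen in DT-labelled liver (3.87 ± 0.82, adjusted p = 0.00102) and VAT (3.11 ± 0.78, adjusted p = 0.00778) and lower in PBS-labelled ear skin, where it was near 0 (-4.27 ± 1.31, adjusted p = 0.0157).

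Marker sums moved with these differences too. The 8 T cell markers summed to 6509.7 to 7841 CPM in PBS-labelled spleen, 3761 to 4119 CPM in ear skin and 4676 to 5126 CPM in VAT, while the 6 Treg markers summed to 2420.1 to 2628, 3681 to 3723 and 3359 to 4955 CPM, so the Treg markers were not lower where the members were. The plasmacytoid dendritic cell sum was 63.2 to 89.7 CPM in PBS-labelled spleen, 27.8 to 41.9 CPM in ear skin and 42.7 to 61.5 CPM in VAT. The fibroblast and mesothelial sum was 2.59 to 9.29 CPM in spleen and 19.7 to 36.0 CPM in ear skin, and the keratinocyte sum 1.79 to 9.60 and 14.7 to 15.8 CPM. Conventional dendritic cell markers, mostly Zbtb46, were higher in lung, liver and ear skin (46.3 to 80.6 CPM over the 3 PBS-labelled groups) than in spleen (15.5 to 33.2 CPM). In lung the macrophage sum was 66.7, 19.2 and 7.27 CPM in PBS-labelled replicates 1, 2 and 3, against 10.8 to 15.1 CPM in spleen. Their part in the differences was not tested.

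Within each tissue the DT-labelled arm was compared with the PBS-labelled arm. The question was whether Treg cells that by the design had returned after depletion differ from those of the control arm. Titles and design text differ on what that control arm received, and the labels do not settle it. In spleen, lung and liver no member passed edgeR's test, nor did any of the other genes tested (0% of 12453, 12046 and 11962 genes), with 3, 3 and 1 members at an unadjusted p under 0.05. The scores of the arms overlapped in these 3 tissues. On simulated counts the spleen fit recovered 36% of 2-fold changes, so differences of that size may have been missed. In ear skin no member of the 33 tested passed either (0.411% of 12653 genes did), with 15 members at an unadjusted p under 0.05 and 5 called higher by DESeq2. In VAT 1 of 36 members passed, Oas3, where 0.0497% of 12067 genes were higher, with 17 members at an unadjusted p under 0.05 and 3 called by DESeq2.

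Oas3 was at 11.8, 10.8, 11.2 and 17.8 CPM in PBS-labelled VAT and at 39.6, 49.4, 31.6 and 25.8 CPM in DT-labelled VAT. The arms did not overlap, and the log2 difference was 1.54 ± 0.25 (adjusted p = 0.0478). This call was lost in 7 of 8 fits that left out a single VAT library, in the fit over all 32 peripheral libraries and without DT-labelled replicates 5 and 7 (adjusted p = 0.513), so it rests on the full set. Irf7 was at 41.9, 40.0, 39.1 and 52.3 CPM in the PBS-labelled and at 113, 89.1, 74.3 and 67.0 CPM in the DT-labelled arm, without overlap, and missed the threshold (1.02 ± 0.18, adjusted p = 0.0646). Ifi27l2a was at 359, 290.2, 299 and 397 CPM and at 501, 418, 427 and 430.1 CPM, also without overlap (0.44 ± 0.13, adjusted p = 0.341).

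Most members had higher estimates in the DT-labelled arm of VAT and ear skin. In VAT 33 of the 36 members tested lay above 0 with a median of 0.45, and in 8 every DT-labelled library was above every PBS-labelled one, against 1.63% of all genes. In ear skin 28 of 33 lay above 0 with a median of 0.58, and in 14 the arms did not overlap, against 5.37% of all genes. The score was higher by 0.77 in VAT (0.76 without replicates 5 and 7) and by 0.69 in ear skin, and in both tissues the arms' scores did not overlap. In ear skin Ifit1 was at 0, 0.283 and 2.38 CPM in the PBS-labelled and at 8.40, 8.60 and 12.7 CPM in the DT-labelled arm (3.46 ± 0.80, adjusted p = 0.0669), and Ifi213 at 1.81, 8.48 and 5.56 CPM and at 17.9, 23.3 and 19.8 CPM (1.96 ± 0.46, adjusted p = 0.0688). Neither passed the threshold.

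Whether the arms differed more in a tissue than in spleen was tested directly. No member passed in lung, liver, ear skin or VAT (0%, 0%, 0.0451% and 0.0169% of all genes in either direction), with 2, 2, 11 and 14 members at an unadjusted p under 0.05, and DESeq2 called 3 members in ear skin. Of the 6 genes followed throughout, the largest estimates were those of Ifit3, 4.82 ± 1.21 in ear skin (adjusted p = 0.233) and 3.59 ± 0.94 in VAT (adjusted p = 0.455), where the spleen arms themselves differed by -1.37 ± 0.59. Replicate 1 of PBS-labelled spleen stood apart for Ifit3, at 99.0 CPM against 21.7 and 20.3 CPM. DT-labelled spleen was at 26.1, 18.6 and 8.08 CPM. Among the upstream genes no member of the JAK-STAT list was called between the arms in any tissue.

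Some DT-labelled VAT libraries had high levels of other cells' markers. Replicate 7 had a fibroblast and mesothelial sum of 532 CPM and a macrophage sum of 128 CPM, and replicate 5 a plasmacytoid dendritic cell sum of 82.0 CPM, where the PBS-labelled libraries had 1.79 to 8.62, 9.22 to 31.3 and 42.7 to 61.5 CPM. Replicate 8 had the lowest macrophage sum of its arm, 4.07 CPM, and a fibroblast sum of 2.36 CPM. The scores of DT-labelled replicates 5 to 8 were 5.15, 4.90, 4.75 and 4.95, against 3.88 to 4.42 in the PBS-labelled arm. The endothelial sum was 97.2 to 142 CPM in DT-labelled and 60.6 to 95.6 CPM in PBS-labelled VAT. The part of any of these cells in the differences between the arms was not tested. In ear skin the macrophage sum was 23.1 to 37.9 CPM in the DT-labelled and 14.4 to 26.4 CPM in the PBS-labelled arm, which overlap.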

How the data were processed

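The table deposited by the authors holds raw counts, as whole numbers for each gene symbol in 50 libraries; per the submitters' processing notes, reads were aligned with STAR 2.7.3a to mm10 and counted with featureCounts. Annotation, strand setting and the handling of multi-mapping reads were not given in the sources used here, and no molecular identifiers are named. Counts as deposited were fitted with edgeR 4.0.16 (R 4.3.3; TMM scaling, a filter with a minimum count of 10 and minimum total of 15, quasi-likelihood F test, Benjamini-Hochberg adjustment over all genes tested), with 18 thymus libraries in one fit, 32 peripheral libraries in another, and each tissue alone for DT-labelled against PBS-labelled. The fits were tested on simulated counts. CPM use TMM factors over all 50 libraries, marker sums plain library totals, and the score a prior count of 2. Exon lengths and gene annotation are from GENCODE M21 (mm10). Genes named were the 6 followed throughout (Irf7, Isg15, Ifit3, Oasl2, Bst2 and Ifi27l2a), up to 8 called members per direction with the largest change and a mean of at least 10 CPM, and upstream genes (Ifnar1, Ifnar2, Irf1 and Socs1; a further one is not reported here); further members were named as examples of their role or of exceptions after their values were seen. The members and lists were chosen with earlier results of these data known. Alternatives were DESeq2 1.42.0, its size factors, no filter, a replicate block, a covariate, other sets of libraries and leaving out libraries.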

Additional observations from a re-analysis of the deposited data

Results flagged for a closer look

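In 80 groups of 4 VAT libraries (2 arms, for each member and the score), 10 had a highest or lowest library farther from the others than Dixon's 95% critical value allows; chance alone flags about 1 in 20 groups. In the DT-labelled arm the highest library stood apart for Ddx58 (138 CPM in replicate 5), Rsad2 (13.4 CPM in replicate 5), Ifi27l2a (501 CPM in replicate 5) and Usp18 (17.3 CPM in replicate 6), and the lowest for Sp100 (333 CPM in replicate 7). Replicate 5 thus accounted for 3 of these, and it also had the highest plasmacytoid dendritic cell marker sum of its arm, 82.0 CPM. In the PBS-labelled arm the highest library stood apart for Oas2, Oas3 and Mx2 (5.37, 17.8 and 3.93 CPM, each in replicate 4). It did so too for Mx1 (50.8 CPM in replicate 2) and Ifi44 (0.211 CPM in replicate 3, the only VAT library of that arm with a count). With the other libraries at 0, any count of Ifi44 would have been flagged, so that flag cannot be set against the rate by chance.

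The gap between P2 and P1 in Ifi27l2a differed between day 49 and day 5 by -0.90 on the log2 scale (edgeR adjusted p = 0.03).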

How the results depend on the processing

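No called result changed direction under any alternative, while score differences near 0 (P2 at day 49 against day 5, liver against spleen in each arm, and the arms in spleen and liver) changed sign when some single libraries were left out. Counts are of members called in either direction with edgeR unless DESeq2 is named. The counts for P2 against P1 at each age and for ear skin and PBS-labelled VAT against spleen stayed within 1.5 times under each alternative run. Without the filter on low counts, the gap between P2 and P1 gave 2 (day 12 against day 5) and 11 (day 49 against day 5), P2 at day 49 against day 12 gave 11, the arms gave 5 in ear skin and 9 in VAT, and their difference from spleen gave 1 in lung, 4 in ear skin and 4 in VAT. DESeq2 gave 1 and 4 for the 2 gap tests, 5 (ear skin) and 3 (VAT) between the arms, and 3 for ear skin against spleen in that difference. With the low-expression share as covariate, day 49 against day 5 gave 0 for the gap and 6 in P2, day 12 against day 5 gave 2 in P1, and day 49 against day 12 gave 0 in P1 and 1 in P2. With the compared libraries alone, P1 at day 12 against day 5 gave 14, P2 gave 6 at day 12 against day 5, 1 at day 49 against day 12 and 6 at day 49 against day 5, lung gave 8 and 17 (PBS-labelled, DT-labelled), liver 6 and 16, and DT-labelled VAT 21. Over all 32 peripheral libraries ear skin gave 1 between the arms. Without day 49 P2 replicates 2 and 3, P2 gave 1 against day 12 and 8 against day 5. Without VAT DT replicates 5 and 7 (chosen after seeing the data), VAT gave 6 against spleen and 0 between the arms. Leaving out each library in turn gave 0 to 6 for the gap at day 49 against day 5, 1 to 4 for P1 at day 12 against day 5, 3 to 10 for P1 and 3 to 10 for P2 at day 49 against day 12, 9 to 15 and 5 to 9 for lung, 7 to 10 and 5 to 7 for liver, 5 to 12 for DT-labelled VAT, and 0 to 1 (ear skin) and 0 to 3 (VAT) between the arms. With the median over members in place of the mean, the score difference was 0.26 for P1 at day 49 against day 5, -1.22 for PBS-labelled VAT against spleen and 0.48 between the arms in VAT. The cause of these shifts was not tested, apart from the smaller number of libraries in fits that left some out. Replicate numbers were not taken to pair samples: over 17 comparisons same-numbered libraries had correlations of -0.25 to 0.27, and in none was every pair over 0.1. As a hint from the data alone, same-numbered pairs lay above all others in DT-labelled liver (0.078 to 0.097 against at most 0.015) and PBS-labelled ear skin (0.064 to 0.11 against at most 0.062) against spleen. With the replicate block, 37, 34 and 27 members were called between P2 and P1 at the 3 ages in order, 1 in the day 12 gap test and 6 in DT-labelled VAT against spleen. Near-zero counts in ear skin and VAT limit the precision for Ifit1, Ifit3 and Oasl2.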
